A study of Mus musculus with 3 samples.

Results

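The genes described here are the members of the C-type lectin family that carry a Clec symbol, measured in 3 myeloid cell populations sorted from the mouse spleen. They were found by their names: every probe set whose platform annotation gives a single symbol made of Clec and a digit was taken, and each gene was represented by the brightest of its probe sets (highest mean level). The rule found 36 probe sets for 26 genes, out of 18193 named genes on the array. The rule uses names alone, with no measured value, although the family was taken up with earlier results of these data known.

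All cells came from adult mice of the genotype Spic(igfp/+), in which 1 allele of Spic, an Ets family transcription factor, carries a green fluorescent protein (GFP) reporter. Spic-negative monocytes were sorted as CD11b+ Ly6C+ cells without GFP, Spic-positive monocytes as CD11b+ Ly6C+ cells with GFP, and red pulp macrophages, which engulf old red blood cells and recycle their iron, as F4/80 high and GFP high cells. The design text describes a depletion of cells bearing CD4, CD8 or B220 before the monocyte sort, whereas the protocol of each sample names a negative selection, so whether the macrophages were depleted too is not settled by the sources used here. The sources used here do not give how many animals were pooled for a sample, and no mice without the reporter allele were among the samples. Each population was measured on 1 Affymetrix array, so no spread between animals could be estimated, no test was run, and every difference below is a difference between single arrays.

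C-type lectin receptors of the Clec family are mostly type II membrane proteins of myeloid cells whose extracellular domain binds carbohydrates, lipids or proteins of microbes, dying cells and other host cells. Activating members signal through the kinase Syk, either through their own short tyrosine motif (Dectin-1, encoded by Clec7a, and CLEC-2, encoded by Clec1b) or through adaptors such as the Fc receptor gamma chain (Fcer1g) and DAP12 (Tyrobp), while inhibitory members recruit phosphatases. Most of these genes lie in clusters next to the natural killer gene complex, and a further group, Clec2, encodes ligands that natural killer cells read through NKR-P1 receptors.

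Log2 levels are given here and throughout in the order Spic-negative monocytes, Spic-positive monocytes, red pulp macrophages. Among genes of the sort, Spic stood at log2 5.66, 9.22 and 12.23, Itgam (CD11b) at 8.68, 7.38 and 5.23, and Adgre1 (F4/80) at 10.77, 10.67 and 12.50. Itgam differed by -1.30 between the monocyte arrays, although both were sorted as CD11b+. The Ly6C genes Ly6c1 and Ly6c2 had no value here. The hemoglobin receptor gene Cd163, not used in the sort, stood at 4.49, 3.81 and 11.48. The arrays also differed in ways the sort does not name. The 18 hybridization controls had a median difference of log2 2.16 between the Spic-positive and Spic-negative arrays, brighter on the former, and Xist stood at log2 4.63, 4.70 and 11.95 and the Y-linked gene Eif2s3y at 10.10, 9.56 and 3.31, so the sex of the animals differed between the macrophage array and the monocyte arrays and cannot be told apart from cell type. Erythroid transcripts were high on the macrophage array alone: of 6 genes listed 4 were measured, and Alas2 stood at log2 4.69, 5.51 and 10.89, Slc4a1 at 3.86, 3.83 and 11.32 and Klf1 at 4.70, 4.52 and 9.47, while Hba-a1 was below the floor defined in the next paragraph on every array. Their summed level on a linear scale was 78.8, 98.6 and 5170, and the part of erythroid RNA in the macrophage differences of Clec genes was not tested. The 3 measured T cell genes had summed linear levels of 214, 238 and 320. They were mixed: Cd3g stood at log2 3.48, 4.20 and 6.99, above the floor in macrophages alone. Cd3e stood at 6.63, 6.57 and 6.16 and Cd4 at 6.70, 6.96 and 6.93. The part of T cell RNA in the macrophage differences was not tested. Of the 26 Clec genes, 0 lie on the X or Y chromosome. In bulk samples such as these, fewer cells of a type and less RNA per cell cannot be told apart.

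A level counts as above the floor where it exceeds log2 5.02, the median level over the arrays when control probe sets are left out. On at least 1 array 19 of the 26 Clec genes lay above it, and 17 did so on all 3. The other 7, Clec12b, Clec14a, Clec18a, Clec1a, Clec2e, Clec2g and Clec2m, stayed between log2 2.74 and 4.89 on every array and are not compared further. Clec1a and Clec14a are lectins of endothelial cells, and Clec12b encodes an inhibitory receptor. Values for Clec4a1, Clec4a4, Clec4b2, Clec9a and Clec12a, other members of the same clusters, were not analysed here.

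**Figure D1:**
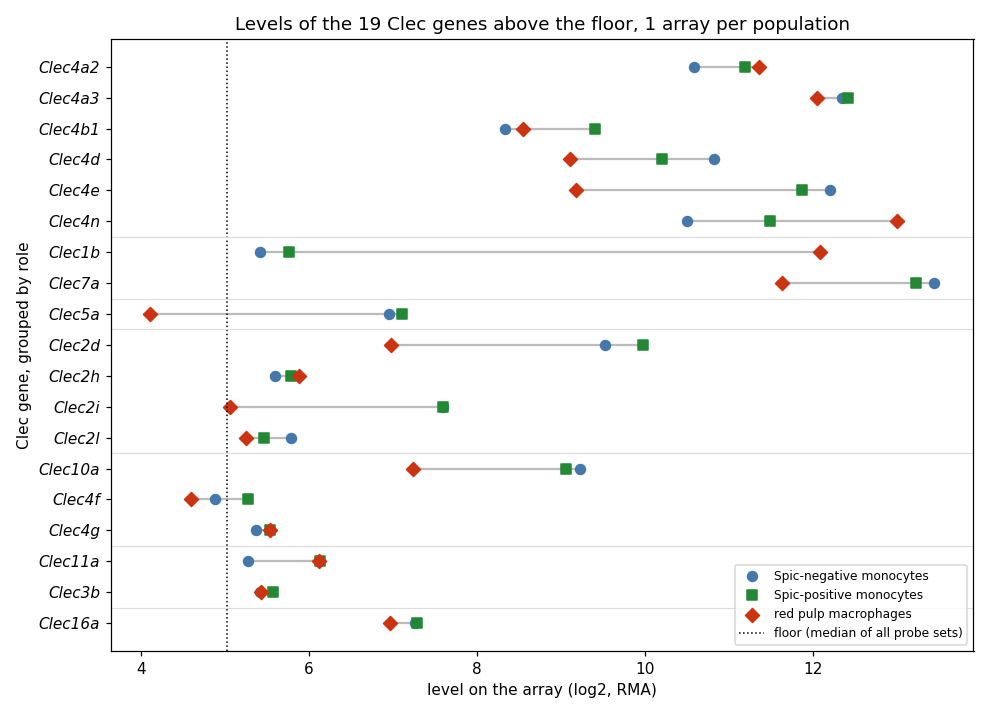
Log2 level of the 19 Clec genes above the floor on each of the 3 arrays (circles, Spic-negative monocytes; squares, Spic-positive monocytes; diamonds, red pulp macrophages), with the floor at log2 5.02 as a dotted line and a grey bar joining the lowest and highest array of a gene. Levels are to be read along a row only, since probe sets of different genes are not on a common scale; the longest bars are Clec1b, far to the right in macrophages, and Clec4e, Clec5a, Clec2d and Clec2i, far to the left in macrophages.

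Between mature macrophages and monocytes the Clec genes split into 2 that were higher and 7 that were lower in macrophages. Clec1b and Clec4n, which encode CLEC-2 and Dectin-2, were at least 2-fold higher in red pulp macrophages than in either monocyte population. Clec4e (Mincle), Clec4d (MCL), Clec7a (Dectin-1), Clec5a (MDL-1), Clec2d (Clr-b), Clec2i (Clr-g) and Clec10a (a galactose-type lectin) were at least 2-fold lower. Against Spic-negative monocytes the count of 2 higher genes of 19 (10.5%) stands beside 19.6% of all 12375 genes above the floor, and that of 7 lower genes (36.8%) beside 11.3%. Against Spic-positive monocytes the counts were also 2 and 7 of 19, beside 22.0% and 11.6% of all genes. At 4-fold, 2 genes were higher and 4 lower than in Spic-negative monocytes, beside 7.38% and 2.63% of all genes, and 1 was higher and 4 lower than in Spic-positive monocytes, beside 7.22% and 2.04%. The 4 lower genes include Clec5a, whose macrophage level lay below the floor and whose difference from Spic-negative monocytes, taken against the floor, was at least 3.82-fold, under the 4-fold line. Both comparisons use the same macrophage array. The median difference of the 19 genes was log2 -0.30 against Spic-negative and -0.37 against Spic-positive monocytes, where all genes had medians of 0.03 and 0.10. These 2 medians moved with the processing, from -0.14 after cyclic loess to -1.01 with a floor at the 75th percentile, and from -0.25 with arrays centred to -0.98 with that floor.

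**Figure D2:**
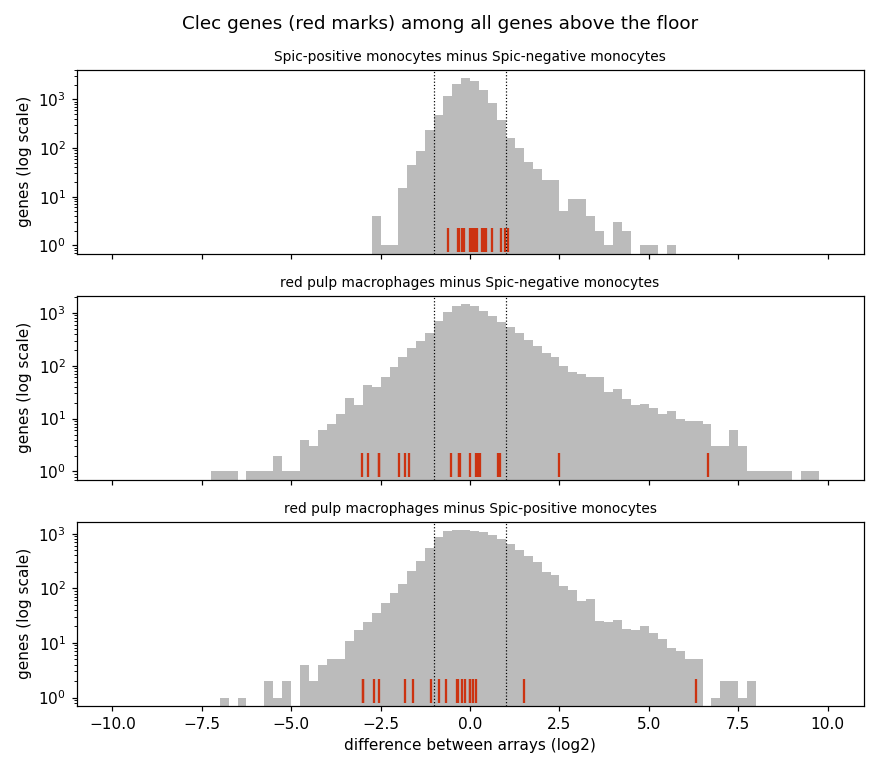
Number of genes (log scale) by log2 difference between arrays, for the 12375 genes above the floor, with the 19 Clec genes as red marks and dotted lines at 2-fold. In both macrophage comparisons Clec1b lies far in the right tail and 7 Clec genes lie left of the 2-fold line, while in the comparison of monocytes 18 of the 19 (94.7%) lie within 2-fold, as do 93.4% of all genes.

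The promoters of genes that carry these differences are printed here where a window was at hand. Clec1b was higher in macrophages, and Clec2d, Clec2i, Clec4d, Clec4e, Clec5a and Clec7a are the lower genes that had a window. Clec4b1 is the gene that differed between the monocytes. Each window holds 250 bases before and 50 bases after the gene's start, 5′ to 3′ on the gene's strand, from RefSeq on build GRCm38.p6, in which 22 of the 26 genes had 25 windows. Clec4n, Clec10a, Clec3b and Clec1a had none. Capitals mark, on either strand, GAGGAA, the core of the PU box that the Ets factors PU.1 and Spi-C bind, TGACTCA, the AP-1 element, and TTGCNNAA, a form of the C/EBP element.
Clec1b, chr6:129397047-129397346, plus strand: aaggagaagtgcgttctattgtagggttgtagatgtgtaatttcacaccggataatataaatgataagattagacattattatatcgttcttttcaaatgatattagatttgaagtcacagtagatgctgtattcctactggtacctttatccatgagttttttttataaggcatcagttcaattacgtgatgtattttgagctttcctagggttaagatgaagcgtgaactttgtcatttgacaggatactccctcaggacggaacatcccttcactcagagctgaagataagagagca
Clec2d, chr6:129180365-129180664, plus strand: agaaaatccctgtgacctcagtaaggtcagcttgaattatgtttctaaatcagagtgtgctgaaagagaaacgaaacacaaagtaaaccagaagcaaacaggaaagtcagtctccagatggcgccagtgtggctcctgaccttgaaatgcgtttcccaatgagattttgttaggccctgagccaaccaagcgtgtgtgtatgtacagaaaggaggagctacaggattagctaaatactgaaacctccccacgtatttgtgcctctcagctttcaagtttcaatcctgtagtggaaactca
Clec2i, chr6:128887337-128887636, plus strand: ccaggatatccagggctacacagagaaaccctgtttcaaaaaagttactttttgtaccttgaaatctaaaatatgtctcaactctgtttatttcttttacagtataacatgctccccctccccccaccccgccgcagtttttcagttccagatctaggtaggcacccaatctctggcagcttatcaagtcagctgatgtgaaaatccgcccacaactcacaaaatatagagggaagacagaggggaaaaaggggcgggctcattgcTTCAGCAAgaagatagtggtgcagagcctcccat
Clec4b1, chr6:123049712-123050011, plus strand: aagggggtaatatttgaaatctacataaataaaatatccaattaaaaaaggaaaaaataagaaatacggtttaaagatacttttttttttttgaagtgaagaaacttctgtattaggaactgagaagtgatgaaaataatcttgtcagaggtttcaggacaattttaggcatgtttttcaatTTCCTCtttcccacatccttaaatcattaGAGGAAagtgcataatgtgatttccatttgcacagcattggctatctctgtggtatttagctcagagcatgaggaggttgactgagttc
Clec4d, chr6:123261857-123262156, plus strand: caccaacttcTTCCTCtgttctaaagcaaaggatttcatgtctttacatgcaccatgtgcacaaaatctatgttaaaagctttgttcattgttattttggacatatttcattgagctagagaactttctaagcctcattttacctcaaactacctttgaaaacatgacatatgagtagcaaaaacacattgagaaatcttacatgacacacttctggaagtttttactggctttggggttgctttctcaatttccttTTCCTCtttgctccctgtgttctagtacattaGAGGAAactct
Clec4e, chr6:123289822-123290121, minus strand: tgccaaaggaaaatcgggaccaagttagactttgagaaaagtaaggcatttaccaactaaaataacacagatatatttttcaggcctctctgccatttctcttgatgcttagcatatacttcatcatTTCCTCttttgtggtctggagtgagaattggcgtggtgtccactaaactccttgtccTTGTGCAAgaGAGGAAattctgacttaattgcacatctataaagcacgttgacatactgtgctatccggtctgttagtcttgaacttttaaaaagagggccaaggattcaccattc
Clec5a, chr6:40585756-40586055, minus strand: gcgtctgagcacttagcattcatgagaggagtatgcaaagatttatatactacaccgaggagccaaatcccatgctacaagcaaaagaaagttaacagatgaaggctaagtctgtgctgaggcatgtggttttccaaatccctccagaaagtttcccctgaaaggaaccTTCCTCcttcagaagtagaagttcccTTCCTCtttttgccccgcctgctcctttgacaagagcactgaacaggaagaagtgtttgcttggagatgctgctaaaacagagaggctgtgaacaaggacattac
Clec7a, chr6:129472730-129473029, minus strand: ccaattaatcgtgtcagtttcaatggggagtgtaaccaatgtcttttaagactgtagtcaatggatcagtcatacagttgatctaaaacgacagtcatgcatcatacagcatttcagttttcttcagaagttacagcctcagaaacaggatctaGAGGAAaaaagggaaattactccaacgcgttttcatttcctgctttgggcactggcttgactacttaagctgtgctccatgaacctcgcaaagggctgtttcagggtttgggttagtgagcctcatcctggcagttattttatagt
GAGGAA was found in 13 of the 25 Clec windows and in 28.3% of all 32851 windows of this length, TGACTCA in 3 and in 5.20%, and TTGCNNAA in 5 and in 10.8%. The Clec4e window holds GAGGAA at -123 and -56 and TTGCNNAA at -66, counted from the gene's start, with no overlap between the matches. In Clec5a it stands at -81 and -55, in Clec4b1 at -68 and -39, and in Clec7a at -96, where the second RefSeq window of this gene, shifted by a few bases, holds the same match. Clec4d has it at -240, 7 and 39. Clec2i has TTGCNNAA at 16 and no GAGGAA, and its second window, shifted by a few bases, holds the same match. The counts by window therefore include the matches of Clec2i and Clec7a more than once. None of the 3 motifs is in the windows of Clec1b and Clec2d. GAGGAA is also in windows of genes that stayed within 2-fold in macrophages, among them Clec11a, Clec16a and Clec4a3. A match is a description of the letters only.

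Clec1b encodes CLEC-2, a receptor for podoplanin that is best known from platelets and megakaryocytes and is also found on resident macrophages of the liver. Its single probe set (1421182_at) stood at log2 5.42, 5.76 and 12.08. The macrophage array was high, and both monocyte arrays lay within 1 log2 unit of the floor. The difference between macrophages and Spic-negative monocytes was log2 6.67, a 101-fold ratio, and that from Spic-positive monocytes was 6.33, an 80.3-fold ratio. Of the 12375 genes, 25 had a larger difference in the first comparison and 11 in the second. Because the monocyte levels are close to background, the size of these ratios depends on the background. Between the monocyte arrays Clec1b differed by 0.34, well within 2-fold, while Spic on the same arrays differed by 3.56.

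Platelet transcripts were looked at beside Clec1b, from a list of 9 marker genes of which 7 were measured. Pf4 and Ppbp, chemokines of platelet granules, stood at log2 4.97, 5.80 and 8.94 and at 4.38, 4.82 and 9.23, so both were high on the macrophage array alone. The levels of the other measured genes of the list follow. Itga2b stood at 6.64, 6.52 and 6.96, Gp9 at 5.99, 6.39 and 6.27 and Treml1 at 6.10, 6.60 and 6.003. Gp1bb stood at 5.18, 5.96 and 4.75, with macrophages below the floor, and Gp5 lay below it on all arrays. Against Spic-negative monocytes 2 of the 6 list genes that passed the floor were higher by 2-fold or more (33.3%, beside 19.6% of all genes). The summed level of the list on a linear scale was 343, 440 and 1413. Neither the part of platelet RNA nor that of endothelial RNA, whose markers are given further below, was tested in the Clec1b level. The transcript of its ligand podoplanin, Pdpn, stood near the floor at log2 5.14, 4.90 and 5.06.

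The Dectin-2 cluster holds receptors with opposite patterns next to each other. Clec4n encodes Dectin-2, which binds mannan of fungi and signals through Fcer1g and Syk. Its brighter probe set (1419627_s_at) stood at log2 10.50, 11.49 and 13.002, and the second (1425951_a_at) at 9.63, 10.65 and 11.56. Both rank the arrays in the same order, with Spic-negative monocytes lowest, Spic-positive monocytes between and macrophages highest. The difference of macrophages from Spic-negative monocytes was log2 2.50 on the first and 1.93 on the second, and from Spic-positive monocytes 1.51 and 0.92, so on the second probe set the latter was under 2-fold. Between the monocytes it was 0.98 on the first and 1.01 on the second, on either side of the 2-fold line.

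Clec4e and Clec4d follow Clec4n directly on chromosome 6, and both were lower in macrophages. Clec4e encodes Mincle, a receptor for mycobacterial glycolipid and for the nuclear protein SAP130 released by dying cells. Its probe sets stood at log2 12.20, 11.87 and 9.18 (1420330_at) and at 10.52, 10.01 and 7.201 (1420331_at), low on the macrophage array in each case. The difference of macrophages was -3.02 and -3.32 from Spic-negative monocytes and -2.69 and -2.81 from Spic-positive monocytes. Of all genes, 83 had a more negative difference from Spic-negative monocytes than Clec4e. Clec4d encodes MCL, which pairs with Mincle at the cell surface. Its probe set (1420804_s_at) stood at log2 10.82, 10.21 and 9.10, highest in Spic-negative monocytes and lowest in macrophages, and the difference of macrophages was -1.72 from Spic-negative and -1.10 from Spic-positive monocytes.

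The remaining genes of the cluster encode DCIR and DCAR receptors. Clec4a3 (DCIR3) stood at log2 12.34, 12.42 and 12.05, the same to within 0.37 on all arrays. Clec4b1 (DCAR), which couples to Fcer1g, stood at 8.34, 9.41 and 8.55, with Spic-positive monocytes above both other populations, by 1.07 against Spic-negative monocytes and with macrophages lower by -0.86 on the log2 scale. Clec4a2 encodes DCIR1, an inhibitory receptor that recruits phosphatases, and its probe sets disagreed. The brighter (1422013_at) stood at 10.58, 11.19 and 11.35, and the other (1425406_at) at 8.23, 8.81 and 6.74, so that macrophages were 0.77 higher than Spic-negative monocytes on the first and lower by -1.49 on the second. A further probe set that the annotation gives to both Clec4b1 and Clec4a2 stood at 11.19, 11.83 and 10.89. On all of these Spic-positive exceeded Spic-negative monocytes, but no direction for Clec4a2 in macrophages can be given.

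**Figure D3:**
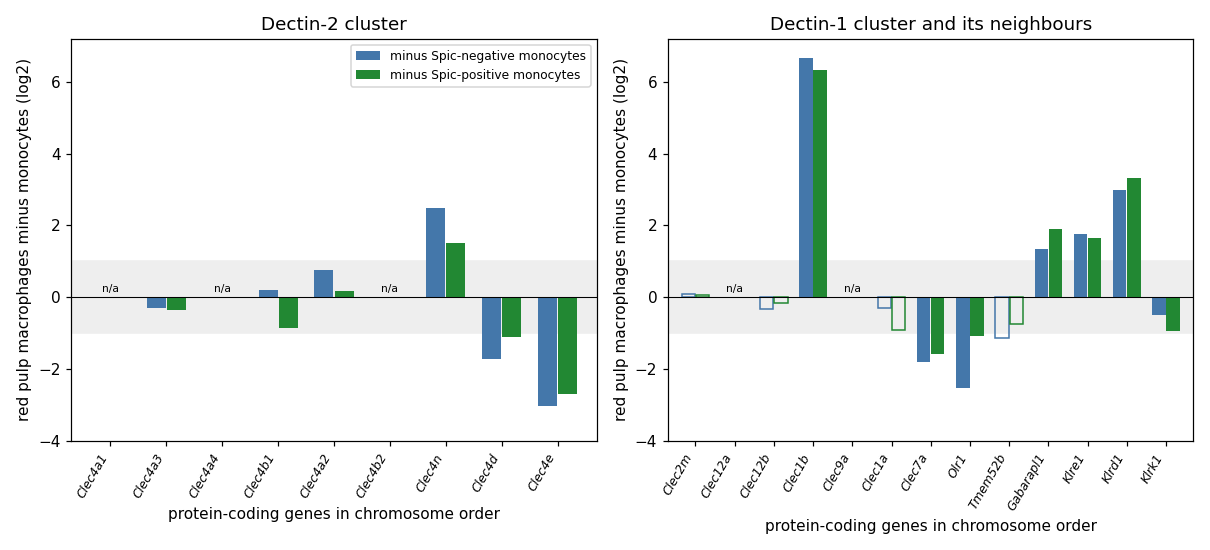
Log2 difference of red pulp macrophages from Spic-negative (blue) and Spic-positive (green) monocytes for protein-coding genes in chromosome order, with the grey band at less than 2-fold, open bars for genes below the floor on all arrays and n/a for genes with no value here. Clec4n points up beside Clec4d and Clec4e, which point down, and Clec1b points up in the stretch whose other Clec gene above the floor, Clec7a, points down.

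The Dectin-1 cluster, like the Dectin-2 cluster, held a higher and a lower gene. Clec7a encodes Dectin-1, the receptor for beta-glucan of fungal cell walls. Its probe set (1420699_at) stood at log2 13.44, 13.22 and 11.63, high on both monocyte arrays and still far above the floor in macrophages, which differed by -1.81 and -1.59 from Spic-negative and Spic-positive monocytes. The next gene on the chromosome, Olr1, which encodes the oxidized lipoprotein receptor LOX-1, stood at 7.71, 6.25 and 5.18. Among protein-coding genes, Clec1b is separated from Clec7a by Clec9a, not analysed here, and by Clec1a, below the floor.

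Clec5a encodes MDL-1, which signals through DAP12. It stood at log2 6.96, 7.10 and 4.10, above the floor on both monocyte arrays and below it in macrophages. The measured difference of macrophages was -2.85 from Spic-negative and -3.00 from Spic-positive monocytes. Set against the floor in place of the macrophage level, the monocyte levels were at least 3.82-fold and 4.23-fold higher.

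Markers of other myeloid cells were read beside these lower genes. The 4 measured genes of classical monocytes, Ccr2, F13a1, Vcan and Itgam, were all at least 4-fold lower in macrophages than in Spic-negative monocytes, with a median of log2 -4.81. Of all genes 2.63% were. Of 6 neutrophil genes measured, 2 were at least 2-fold lower than in Spic-negative monocytes (33.3%, beside 11.3% of all genes). They were Mmp8 by -3.38 and Cxcr2 by -1.49. The alarmin genes S100a8 and S100a9 differed by -0.28 and -0.88, and the granule genes Ngp and Camp by 0.54 and 0.77. The median of the 6 was log2 -0.58. The summed neutrophil level on a linear scale was 29341, 32703 and 26291. The part of neutrophil RNA in Clec4e, Clec4d, Clec7a and Clec5a was not tested.

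The Clec2 group encodes the Clr proteins. Clec2d encodes Clr-b, a broadly expressed ligand of the inhibitory receptor NKR-P1B on natural killer cells, and stood at log2 9.52, 9.97 and 6.97 (1419477_at). Macrophages were low, and the difference was -2.55 from Spic-negative and -3.00 from Spic-positive monocytes, an 8.02-fold ratio in the latter. Of all genes, 54 had a more negative difference from Spic-positive monocytes. Clec2i (Clr-g), a ligand of NKR-P1F, stood at 7.60, 7.60 and 5.06 on its brighter probe set (1422166_at) and at 6.198, 5.80 and 4.06 on the other (1456426_at). The brighter was level in the monocytes and just above the floor in macrophages. The other differed by -0.39 between the monocytes and lay under the floor in macrophages. The difference of macrophages in Clec2i was -2.53 from Spic-negative monocytes on the first probe set and -2.14 on the second. The latter is measured to a level under the floor and is smaller when taken against the floor. Clec2h (Clr-f) stood at 5.59, 5.78 and 5.88 on a probe set shared between transcripts, and its other probe sets were below the floor. Clec2l stood at 5.78, 5.46 and 5.25.

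Of the genes for receptors of Clr proteins, Klrb1f (NKR-P1F) stood at log2 7.53, 6.92 and 5.63, lowest in macrophages like Clec2i. Klrb1b, the gene of NKR-P1B, stood at 3.08, 3.93 and 5.91, above the floor in macrophages alone, and Klrb1a was below it throughout. Natural killer cell transcripts differed on the same array: Gzma stood at 4.31, 4.004 and 9.24 and Klre1 at 3.84, 3.95 and 5.59. Over the 4 measured genes of that list the summed linear level was 97.1, 109 and 767. Their part in the Klrb1b level was not tested. Cd69, in the same stretch of the chromosome and itself a C-type lectin of activated leukocytes, stood at 7.96, 9.61 and 9.99.

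Clec10a encodes the galactose-type lectin MGL1, known from macrophages of connective tissue and from dendritic cells. It stood at log2 9.22, 9.06 and 7.23 (1419605_at), lowest in macrophages by -1.99 and -1.82. Genes of type 2 conventional dendritic cells, or shared by dendritic cells, were mixed beside it. Against Spic-negative monocytes 4 of the 6 listed were lower in macrophages and 2 higher. The lower were Flt3 at 8.60, 8.05 and 7.37, Cd209a at 7.41, 7.07 and 6.49, Dpp4 at 8.89, 9.50 and 7.13 and Kmo at 7.30, 7.29 and 6.75. The higher were Zbtb46 at 4.11, 5.35 and 6.60, and Itgax (CD11c) at 7.27, 10.41 and 8.50. The summed linear level of the 6 genes of that list was 1364, 2684 and 963, and its part in the Clec10a level was not tested. Other dendritic cell lists went the other way. All 6 genes of type 1 conventional dendritic cells above the floor were higher in macrophages than in Spic-negative monocytes (median log2 1.41). So were 4 of 5 plasmacytoid dendritic cell genes (median 1.60), beside 6405 of all 12375 genes. The part of these cells was not tested either. Clec4f, the lectin of Kupffer cells, the resident macrophages of the liver, was close to the floor on every array at 4.88, 5.27 and 4.59. Clec4g (LSECtin), a lectin of liver sinusoidal endothelium, stood at 5.37, 5.53 and 5.53. In macrophages Clec4f was below the floor. Endothelial marker genes were read too. Stab2 stood at log2 4.35, 6.39 and 11.86 and Lyve1 at 2.88, 3.18 and 5.98. Pecam1 stood at 5.28, 5.16 and 7.18 and Cdh5 at 4.56, 4.65 and 5.20. Kdr was highest in Spic-positive monocytes (6.14, 7.93 and 6.54), and Tek lay under the floor throughout. The summed linear level of these 6 genes was 172, 410 and 4065. The part of endothelial RNA in the macrophage differences of Clec genes was not tested.

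Among the secreted members, Clec11a (stem cell growth factor) stood at log2 5.27, 6.13 and 6.12, and Clec3b (tetranectin) at 5.42, 5.57 and 5.42. Clec16a, which carries the family's name but acts in autophagy and is not a lectin receptor, stood at 7.26, 7.29 and 6.96, and at 4.79, 4.91 and 5.14 on its second probe set (1453635_at), which puts macrophages above both monocyte arrays where the first puts them below. All 3 differed by less than 2-fold between any arrays. Over all comparisons 9 of the 19 genes above the floor did so, and the matching share of all genes was not computed. In each macrophage comparison taken alone, 10 of the 19 (52.6%) were within 2-fold. For all genes this share was 69.1% against Spic-negative and 66.4% against Spic-positive monocytes.

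**Figure D4:**
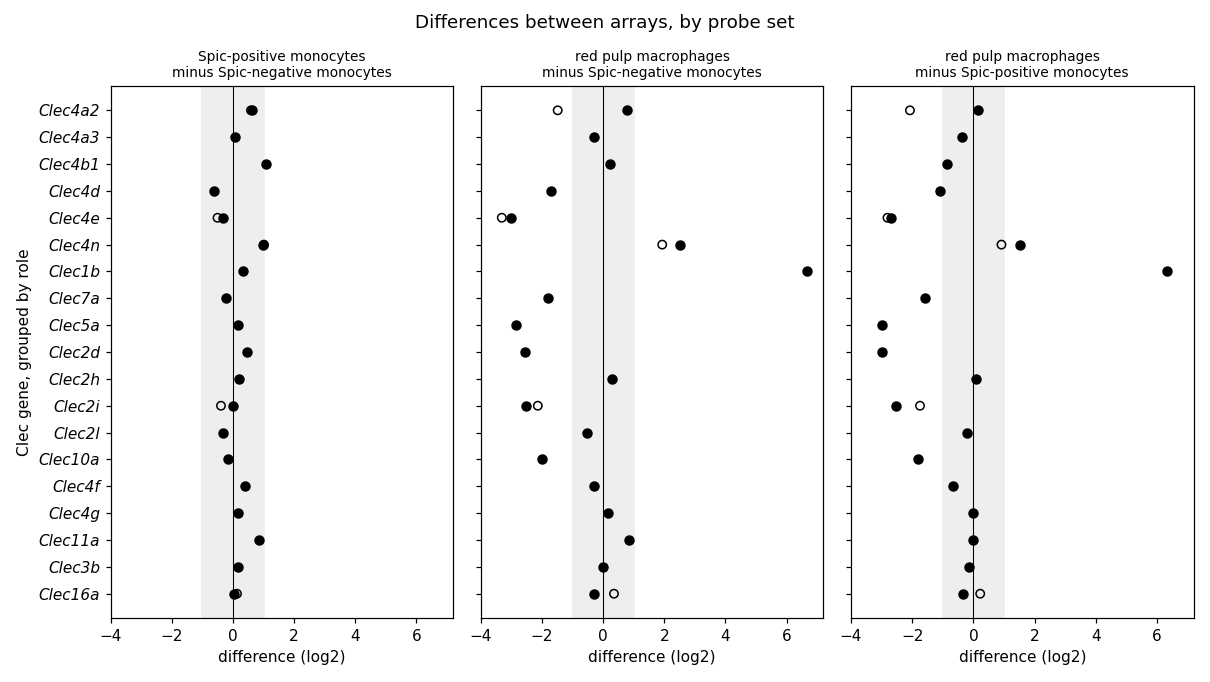
Log2 difference between arrays for the 19 genes, in 3 panels, with filled circles for the probe set that stands for the gene, open circles for its other probe sets above the floor and the grey band at less than 2-fold. In both macrophage panels the open circles of Clec4e, Clec4n and Clec2i lie on the side of the filled circle, while those of Clec4a2 and Clec16a lie on the opposite side of 0.

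Between Spic-positive and Spic-negative monocytes 18 of the 19 Clec genes (94.7%) were within 2-fold, a share near the 93.4% of all genes. Clec4b1, at 8.34 and 9.41, was the 1 gene of 19 that reached a 2-fold higher level in the Spic-positive cells, and 0 reached a 2-fold lower level, beside 3.49% and 3.06% of all genes. Of the differing genes over the whole array 53.3% were higher, a share that was 42.8% with arrays centred on their medians and 63.1% after cyclic loess. After Clec4b1 came Clec4n (0.98, just under 2-fold, with 446 of all genes larger), Clec11a (0.86) and Clec4a2 (0.61), and at the other end Clec4d (-0.62) and Clec4e (-0.33). The median over the 19 genes was 0.16 (0.051 with the floor at the 75th percentile), where all genes had -0.06. B cell transcripts were higher on the Spic-positive array, with 4 of 5 measured markers at least 2-fold higher (80.0%, beside 3.49% of all genes). Their summed linear level was 388, 1589 and 1257, and Itgax was higher by 3.14. Their part in the differences of Clec4b1 and Clec4n was not tested.

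The adaptors and kinases that act below these receptors included 10 of 14 (71.4%) within 2-fold between macrophages and Spic-negative monocytes, near the 69.1% of all genes. Of 18 genes listed 14 were measured, each above the floor on at least 1 array, and against Spic-negative monocytes 1 was at least 2-fold higher in macrophages (7.14%) and 3 were lower (21.4%), beside 19.6% and 11.3% of all genes. Syk, the kinase shared by the activating receptors, stood at log2 11.31, 11.18 and 11.31, level over the arrays. Tyrobp (DAP12) stood at 13.64, 13.58 and 13.33. Fcer1g, the adaptor of Dectin-2 and Mincle, stood at 13.17, 13.12 and 12.16, 1 of the 3 lower genes. Its difference was -1.004 from Spic-negative monocytes, at the 2-fold line, and -0.95 from Spic-positive monocytes, under it. The other two, Plcg2 and Prkcd, which act after Syk, differed by -1.33 and -1.62 between macrophages and Spic-negative monocytes, and the Src kinase gene Src, below the floor in Spic-negative monocytes, by 1.73. Ptpn6, the phosphatase SHP-1 of inhibitory receptors, stood at 11.65, 11.28 and 11.77. Against Spic-positive monocytes 1 of the 14, Vav1 (1.23), was at least 2-fold higher in macrophages (7.14%, beside 22.0% of all genes). There 3 were lower (21.4%, beside 11.6%), namely Prkcd (-2.09), Plcg2 (-1.18) and Malt1 (-1.10). Between the monocyte arrays 1 of the 14, Src, was 2-fold higher (1.02) and 0 were lower, beside 3.49% and 3.06% of all genes. Src stood at log2 4.32, 5.34 and 6.05. Its Spic-positive level lay within 1 log2 unit of the floor, so against the floor its monocyte difference was under 2-fold.

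Other C-type lectins, those without a Clec symbol, included genes far higher and genes far lower in macrophages. Of 28 listed 27 were measured and 18 lay above the floor. Against Spic-negative monocytes 6 of these were at least 2-fold higher in macrophages and 4 lower (33.3% and 22.2%, beside 19.6% and 11.3% of all genes), and against Spic-positive monocytes 2 and 5 (11.1% and 27.8%, beside 22.0% and 11.6%). Mrc1, the mannose receptor, stood at log2 6.30, 7.08 and 12.55, high on the macrophage array as Clec1b was. Klrd1 (CD94) differed by 2.998, Cd69 by 2.04, Cd72 by 1.71, Cd207 by 1.11 and Cd302 by 1.03 between macrophages and Spic-negative monocytes. The summed levels of natural killer and B cell genes given above were also higher in macrophages than in Spic-negative monocytes. The part of lymphocyte RNA in these lectin differences was not tested. Cd93 stood at 10.90, 10.14 and 6.73 and Thbd, which encodes thrombomodulin, at 10.52, 9.68 and 5.99, both low in macrophages. Among the Cd209 genes, the DC-SIGN relatives, Cd209a stood at 7.41, 7.07 and 6.49, and Cd209b, Cd209c, Cd209e and Cd209g were below the floor on all arrays. Between the monocytes Cd72, a lectin of B cells, was higher by 2.36 and Cd69 by 1.65 in the Spic-positive population, and Olr1 differed by -1.45.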

How the data were processed

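RNA of 3 sorted spleen populations was measured on 1 Affymetrix array each; biotin-labelled cRNA came from column-purified total RNA through 2 cycles of amplification, per the labels' protocols. The authors deposited 1 value per probe set, made with RMA per the submitters' processing notes. That these deposited values are log2 is not stated and was read from their range (1.82 to 14.50). The sources used here name no version of RMA. RMA with quantile normalization hides differences in total RNA, and amplification shortens cRNA. Scanner files were not used here.

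Of 45101 probe sets 64 were controls; 34945 of the others had 1 symbol, 932 several and 9160 were unnamed here. Symbols other than Clec ones were updated through the gene identifier with a RefSeq table (GRCm38.p6). Each of 18193 genes took its probe set with the highest mean. Genes whose brightest array exceeded the floor (12375) were compared by log2 difference, counted at 2-fold and 4-fold. All Clec genes above the floor are named. The members and lists were chosen with earlier results of these data known. Alternatives were the mean or median of probe sets, no _x_at or _s_at probe sets, centring, quantile normalization again, cyclic loess, no floor and a floor at the 75th percentile. The number of arrays limits the precision. Python 3.11.15, numpy 2.4.6, pandas 2.3.3, matplotlib 3.10.9 and limma 3.58.1 in R 4.3.3 were used, and the counting was tested on simulated data.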

Additional observations from a re-analysis of the deposited data

How the results depend on the processing

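For the 7 lower and 2 higher Clec genes, the 2 macrophage comparisons gave 140 differences under the 8 alternatives. Of these 68 differed from the reported value; another floor leaves a gene's value as it is, and the probe set choices do so for most genes with 1 probe set. Of the 68, 66 kept a difference of at least 2-fold in the same direction and 2 did not. Those 2, both against Spic-positive monocytes, were Clec4n without probe sets ending in _x_at or _s_at (0.92), which left 1 higher gene in that comparison, and Clec4d with arrays centred (-0.98). Between the monocytes, the number of genes higher in the Spic-positive population was 2 without those probe sets, after quantile normalization again and after cyclic loess, with Clec4n joining Clec4b1 at 1.01, 1.05 and 1.07. Against Spic-positive monocytes Clec4b1 passed 2-fold after quantile normalization again (-1.09) and after cyclic loess (-1.01). The median of the Clec genes moved more than the counts. Against Spic-positive monocytes it was -0.77 with the mean or the median of probe sets, -0.25 with arrays centred, -0.56 after quantile normalization again and -0.98 with the floor at the 75th percentile. Against Spic-negative monocytes it was -0.14 after cyclic loess and -1.01 with the higher floor, which left 12 genes and took Clec5a out of the 7 lower, and between the monocytes it was 0.051 with that floor. The median over all genes between macrophages and Spic-positive monocytes moved from 0.10 to 0.23 with arrays centred and to -0.026 after quantile normalization again. Clec4a2 differed by -0.36 between macrophages and Spic-negative monocytes with the mean or median of its probe sets. Without _x_at and _s_at probe sets Clec4d had no value, and Clec2h was below the floor. No paired analysis was possible because each population has 1 array, and none could be left out in turn. Levels near the floor limit the ratios of Clec1b, Clec5a and Clec2i.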
